A study of Mus musculus with 6 samples.

Results

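Globin, heme and erythroid regulator genes were followed in 6 RNA libraries from bone marrow cultures of mice, set up to grow myeloid cells. The set has 9 genes, picked by name: the beta-globin genes Hbb-bs and Hbb-bt, the alpha-globin genes Hba-a1 and Hba-a2, Alas2, Klf1, Car1, Epor and Gata1. Of these, 8 had a row in the deposited table of 17382 genes, and Car1 was not analysed here. The 8 rows held 7 distinct sets of reads, because Hba-a1 and Hba-a2 carried the same reads. The donors were C57BL/6 mice, 2 months old. Marrow cells went through a strainer of 40 µm and then into α-MEM with 10% serum and 40 ng/mL of M-CSF, which drives macrophage growth, for 3 days; a lysis of red cells is not mentioned in the protocols used here. The 3 libraries labelled knockout came from mice of the genotype PD-L1 flox/flox +lysozyme-Cre, and the 3 of wild type from littermates that were PD-L1 flox/flox, so both groups carry the floxed alleles. The Cre is driven by the lysozyme gene, which is active in myeloid cells. The design text gives biological triplicates.

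Red cells arise in bone marrow from progenitors that need erythropoietin, which acts through the receptor encoded by Epor. The zinc finger factor GATA1 and the CACCC-binding factor KLF1 then switch on the globin genes, the heme pathway and the genes of the red cell membrane. Alas2 encodes the erythroid form of the first enzyme of heme synthesis, and hemoglobin is built from alpha- and beta-globin chains with heme. GATA1 is also a factor of megakaryocytes, mast cells and eosinophils.

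Depth lay between 52.4 and 77.3 in units of 1000000 reads per library. Cd274, which encodes PD-L1, had 19.3, 19.2 and 29.2 TPM (a level per gene length, scaled to the same total in every library) under the knockout label and 17.9, 15.5 and 23.7 TPM in wild type; it was not lower under the knockout label. Lyz2, the lysozyme gene whose promoter drives the Cre, had 19101, 19354 and 13232 TPM under the knockout label and 26707, 27493 and 40358 TPM in wild type, without overlap (log2 difference -0.87, unadjusted p = 0.0160 and adjusted p = 1.0 by limma). The Cd274 groups overlapped, with a log2 difference of 0.24 ± 0.22 (SE). Its level is a total over the gene, so loss of the floxed part was not tested. Lyz2 divides the libraries by the labels, and genotype differences are given by label. The largest axis of variation (first principal component, 44.3% of variance) did not divide the genotypes: knockout 1, knockout 2 and wild type 3 were negative on it, and knockout 3, wild type 1 and wild type 2 positive. The culture carried macrophage markers, with Csf1r, the M-CSF receptor, at 815 to 1525 TPM. In bulk RNA, fewer erythroid cells and less erythroid RNA per cell cannot be told apart.

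The globin genes come in near-identical copies, and their sequences bear on every globin value below. The coding sequences of Hbb-bs and Hbb-bt are both 444 bases long and differ at 1 base, C417T (the Hbb-bs base first, counted from 1 at the start codon). Those of Hba-a1 and Hba-a2 are both 429 bases long and differ at 1 base, C381T (the Hba-a1 base first). The stretches around these bases, from GENCODE transcripts on GRCm38, are at chr7:103826665-103826722 and chr7:103812656-103812713 on the minus strand and at chr11:32284313-32284373 and chr11:32297130-32297190 on the plus strand, and the capital marks the base that differs.
Hbb-bs: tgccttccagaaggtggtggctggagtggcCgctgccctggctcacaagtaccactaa
Hbb-bt: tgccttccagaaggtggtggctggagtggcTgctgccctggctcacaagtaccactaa
Hba-a1: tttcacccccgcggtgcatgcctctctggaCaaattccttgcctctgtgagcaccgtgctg
Hba-a2: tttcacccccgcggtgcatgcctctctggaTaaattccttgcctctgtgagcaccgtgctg
Of the 50-base windows of the Hbb-bs transcript, 65.8% also occur in the Hbb-bt transcript, and 58.3% the other way round. Of those of the Hba-a1 transcript 67.5% occur in Hba-a2, and 86.9% the other way round. The shares differ by direction because the transcripts differ in length. How reads that match both copies were assigned is not given in the sources used here, so the split between copies is uncertain.

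The table listed globin reads under more than 1 symbol. Hbb-bs shared all 3371 of its reads over the 6 libraries with Hbb-b1, and Hbb-bt shared all 245 with Hbb-b2; Hbb-b1 and Hbb-b2 are names of the beta-globin genes of another mouse haplotype. Hba-a1 and Hba-a2 shared all 2775 reads. Both alpha-globin rows span the pair of genes, at chr11:32283672-32297303 and chr11:32283675-32297310 (mm10, plus strand). The gene lengths recovered from the table were 1118 and 1126 bases for these rows, against 639 for Hbb-bs and 630 for Hbb-bt. A sum over all globin symbols would therefore count each read more than once, and the alpha-globin level below is given once, as Hba-a1.

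The promoters are shown because these genes share erythroid regulators, while their levels over the libraries differed as described below. RefSeq on GRCm38.p6 gave 1 promoter for each of the 8 genes. The 250 bases before the start were searched on both strands for the GATA letters AGATAA and TGATAA and for the letters CACCC of the motif that KLF1 binds; capitals mark the matches. The windows shown are chr7:103827929-103828178 (minus strand), chr7:103813924-103814173 (minus), chr11:32296242-32296491 (plus), chrX:150547167-150547416 (plus) and chr9:21963577-21963826 (minus).
Hbb-bs: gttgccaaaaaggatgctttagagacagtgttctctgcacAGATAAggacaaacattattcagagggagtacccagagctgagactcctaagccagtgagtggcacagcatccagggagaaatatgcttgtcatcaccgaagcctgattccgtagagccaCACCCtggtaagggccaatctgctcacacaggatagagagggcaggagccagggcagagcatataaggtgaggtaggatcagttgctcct
Hbb-bt: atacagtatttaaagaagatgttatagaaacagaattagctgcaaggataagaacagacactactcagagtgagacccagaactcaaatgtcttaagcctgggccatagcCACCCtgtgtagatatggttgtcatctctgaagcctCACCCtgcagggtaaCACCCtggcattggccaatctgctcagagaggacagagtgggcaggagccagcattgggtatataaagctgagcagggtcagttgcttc
Hba-a2: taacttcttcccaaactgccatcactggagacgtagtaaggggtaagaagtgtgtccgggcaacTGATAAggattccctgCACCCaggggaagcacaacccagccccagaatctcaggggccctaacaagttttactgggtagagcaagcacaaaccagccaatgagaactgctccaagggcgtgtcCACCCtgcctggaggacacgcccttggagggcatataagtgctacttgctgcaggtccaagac
Alas2: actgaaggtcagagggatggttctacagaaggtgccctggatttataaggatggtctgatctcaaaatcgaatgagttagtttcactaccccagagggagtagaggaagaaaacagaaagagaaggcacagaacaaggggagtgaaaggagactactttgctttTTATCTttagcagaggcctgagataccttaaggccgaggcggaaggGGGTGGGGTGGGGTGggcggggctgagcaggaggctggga
Epor: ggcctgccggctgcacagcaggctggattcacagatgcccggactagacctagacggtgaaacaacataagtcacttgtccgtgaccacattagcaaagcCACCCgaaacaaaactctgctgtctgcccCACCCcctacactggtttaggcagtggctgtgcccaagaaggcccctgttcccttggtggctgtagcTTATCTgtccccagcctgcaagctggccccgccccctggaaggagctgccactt
The GATA letters lay 210 bases before the start of Hbb-bs, 186 before Hba-a2, 86 before Alas2 and 54 before Epor, the last 2 as the reverse complement. Klf1 held a match as well, 80 bases before its start, and the windows of Hbb-bt and Gata1 held none. All 8 windows held CACCC. Among 32851 promoter windows of RefSeq, 16.6% held the GATA letters, 52.0% CACCC and 7.11% both. The windows of Hba-a1 and Hba-a2, shifted by 3 bases, were identical over 247 bases, so they are not separate cases. A match is a description of these letters and not of binding.

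None of the 8 erythroid rows passed the test of genotype, and all 8 had a negative log2 difference (knockout minus wild type). The test was limma on log2(TPM + 0.1) over 13722 genes, with Benjamini-Hochberg adjustment, and the adjusted p was 1.0 for each of the 8. Over all genes 0 were called, which is a background of 0.0%, and 299 or 2.18% had an unadjusted p under 0.05; none of the 8 did. With limma-voom on the recovered reads 2.26% of genes did so, as did Alas2 alone of the set. Its limma-voom p was 0.0480 before adjustment and 1.0 after it. In 4 of the other 13 alternative fits, 1 to 3 of the 8 rows had an unadjusted p under 0.05, and none was called. Lower under the knockout label with an unadjusted limma p under 0.05 were 0.933% of all genes. A negative log2 difference was found for 48.9% of all genes tested. The groups did not overlap, with the libraries labelled knockout lower, for 3 of the 7 distinct sets of reads, where 2.27% of all genes did so and 5.12% did not overlap in either direction. The median log2 difference of the 7 was -0.47, beside 0.0026 over all genes. The 7 were measured in the same libraries, so they are not separate draws. In the authors' deposited table none of the 8 is called either, where 0.265% of genes are.

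**Figure D1:**
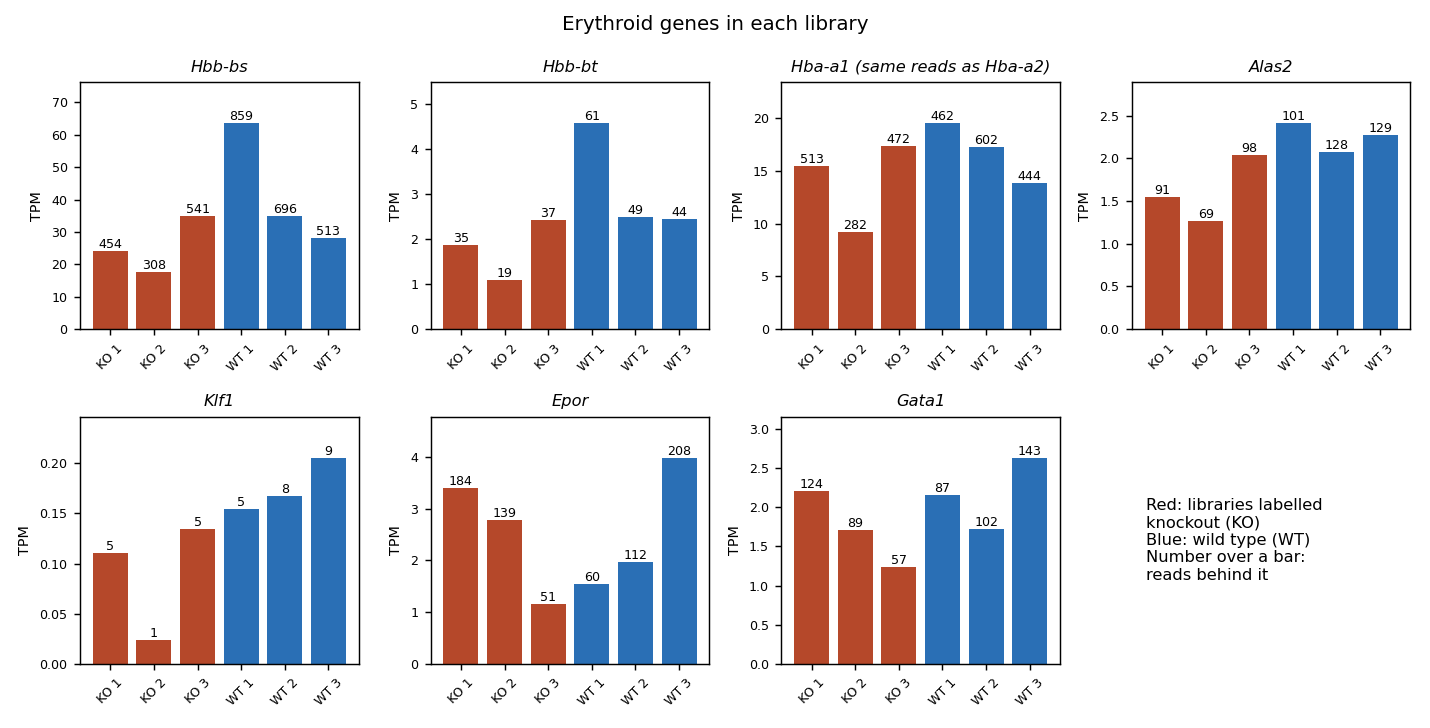
TPM of 7 erythroid genes in each of the 6 libraries, with the number of reads over each bar; red bars are libraries labelled knockout (KO), blue bars wild type (WT), and each panel has its own axis from 0. Hbb-bs reaches 63.5 TPM in wild type 1 and 17.6 TPM in knockout 2, whereas Epor is highest in wild type 3 and lowest in knockout 3.

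Hbb-bs, an adult beta-globin gene of this strain, is encoded at chr7:103826523-103827928 (minus strand, mm10). It had 24.0, 17.6 and 34.9 TPM under the knockout label and 63.5, 35.0 and 28.0 TPM in wild type. Wild type 1 stood above the other 5 libraries, and the groups overlapped, since knockout 3 lay above wild type 3. The means were 25.5 ± 8.7 and 42.2 ± 18.8 TPM (SD, n = 3 each), a log2 difference of -0.69 ± 0.36 (SE) with a 95% interval from -1.55 to 0.17. Without wild type 1 the difference was -0.35, and without knockout 2 it was -0.45. Among the negative libraries of the first component, where wild type 3 was the only wild type, it was -0.45. Among the positive ones, where knockout 3 was the only knockout, it was -0.43. In the authors' deposited table the log2 fold change is -0.72 with an unadjusted p-value of 0.0214, where 1.67% of genes have a p-value under 0.05 and are lower under the knockout label.

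Hbb-bt, the other adult beta-globin gene, is encoded at chr7:103812524-103813923 (minus strand). It had 1.88, 1.10 and 2.42 TPM under the knockout label and 4.57, 2.5 and 2.44 TPM in wild type, from 19 to 61 reads per library. The groups did not overlap, but knockout 3 and wild type 3 were apart by 2.42 against 2.44 TPM, or 37 against 44 reads. The log2 difference was -0.79 ± 0.35 (SE), with a 95% interval from -1.64 to 0.06; without wild type 1 it was -0.50 and without knockout 2 it was -0.49. Hbb-bt followed Hbb-bs through the libraries: the level of Hbb-bs was 11.5 to 16.0 times that of Hbb-bt in each of the 6, and the share of Hbb-bt in beta-globin reads lay between 5.81% and 7.90%. The exact binomial 95% intervals of this share overlapped for all 6 libraries, from 3.53% at the lowest bound to 10.5% at the highest. How far the sequence shared by both genes made their levels alike was not tested.

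Over all 6 libraries the alpha-globin level varied less than that of Hbb-bs, which rested on wild type 1. Hba-a1 had 15.5, 9.20 and 17.4 TPM under the knockout label and 19.5, 17.3 and 13.9 TPM in wild type, and its groups overlapped. Knockout 2 was the low library, and without it the log2 difference of -0.30 ± 0.26 (SE; 95% interval -0.92 to 0.32) was -0.03. The highest library exceeded the lowest 2.12-fold for alpha-globin and 3.61-fold for Hbb-bs. With wild type 1 set aside, the range was 9.20 to 17.4 TPM for Hba-a1 and 17.6 to 35.0 TPM for Hbb-bs.

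Beta-globin reads made up 48.8%, 53.7% and 55.0% of all globin reads under the knockout label and 66.6%, 55.3% and 55.6% in wild type. This share is a ratio within a library and does not depend on depth scaling. Wild type 1 stood apart, with an exact binomial 95% interval of 64.0% to 69.1% that lay above those of the other 5 libraries. Knockout 1 had the lowest share, with an interval of 45.7% to 51.9% that overlapped only that of knockout 2. In the remaining 4 libraries the intervals overlapped, and knockout 3 and wild type 2 differed by 55.0% against 55.3%. The groups did not overlap in this share, and the exact permutation test (two-sided) gave p = 0.1, the smallest p that 3 against 3 samples can give. Such intervals cover counting error only.

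**Figure D2:**
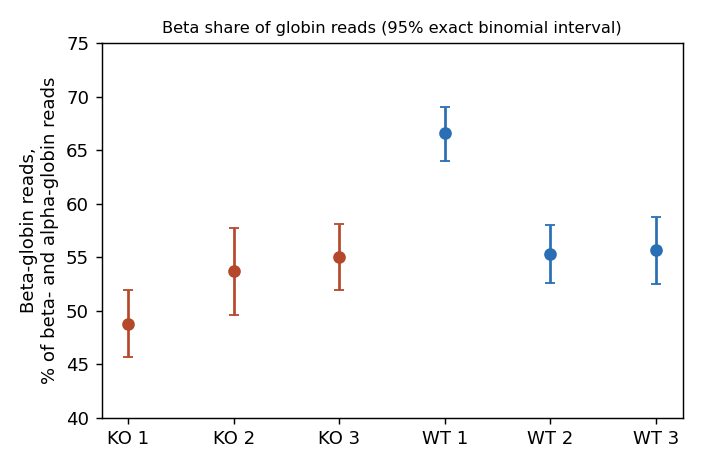
Beta-globin reads (Hbb-bs and Hbb-bt) as a percentage of beta- and alpha-globin reads in each library, with 95% exact binomial intervals; the axis runs from 40% to 75%. Wild type 1 lies at 66.6%, knockout 1 at 48.8%, and the other 4 libraries between 53.7% and 55.6%.

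Alas2, at chrX:150547417-150570622 (plus strand), had 1.55, 1.27 and 2.04 TPM under the knockout label and 2.41, 2.08 and 2.28 TPM in wild type. Every library labelled knockout lay below every wild-type library. Knockout 3 at 2.04 TPM (98 reads) and wild type 2 at 2.08 TPM (128 reads) were next to each other. The exact Poisson 95% intervals of these reads, 79.6 to 119 and 107 to 152, overlapped, and the libraries differed in depth. The log2 difference was -0.47 ± 0.20 (SE), its 95% interval ran from -0.95 to 0.0038, and the unadjusted p was 0.0514 (limma). Among the negative libraries of the first component, where wild type 3 was the only wild type, it was -0.66. Among the positive ones, where knockout 3 was the only knockout, it was -0.13. The mean level of its non-erythroid counterpart Alas1, which serves heme synthesis in all cells, was 92.7 ± 7.6 against 87.1 ± 8.1 TPM (SD, n = 3 each; knockout label first).

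Klf1, the factor that drives adult beta-globin, was near the limit of detection. The gene, at chr8:84901928-84905295 (plus strand), had 5, 1 and 5 reads under the knockout label and 5, 8 and 9 reads in wild type. These are 0.11, 0.024 and 0.13 TPM against 0.15, 0.17 and 0.21 TPM. The groups did not overlap on this scale, although 3 of the libraries had the same 5 reads and differed only in depth. The exact Poisson 95% interval was 0.0253 to 5.57 for 1 read, 1.62 to 11.7 for 5 reads and 4.12 to 17.1 for 9 reads, so counting error is wide beside these levels. The log2 difference on the log2(TPM + 0.1) scale was -0.59 ± 0.30 (SE), and with a pseudocount of 1 it was -0.11.

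Gata1, at chrX:7959260-7967910 (minus strand), had 2.20, 1.71 and 1.23 TPM under the knockout label and 2.16, 1.72 and 2.63 TPM in wild type. The groups overlapped; wild type 3 and knockout 1 were highest and knockout 3 lowest. The log2 difference was -0.34 ± 0.26 (SE), with a 95% interval from -0.95 to 0.27. It was -0.14 without knockout 3 and -0.53 without knockout 1.

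Epor, the erythropoietin receptor, did not follow the globin genes. The gene, at chr9:21958899-21963576 (minus strand), had 3.40, 2.77 and 1.15 TPM under the knockout label and 1.55, 1.97 and 3.97 TPM in wild type. The 3 libraries on the negative side of the first component had 2.77 to 3.97 TPM and the other 3 had 1.15 to 1.97 TPM. That side was itself read from the values of all genes, so this is a description. The log2 difference by genotype was -0.05 ± 0.48 (SE), with a 95% interval from -1.21 to 1.11. Its sign turned when knockout 3 (0.40) or wild type 3 (0.33) was left out. Within the negative and positive sides the difference was -0.36 and -0.56. Wild type 3 was the only wild-type library on the negative side, and knockout 3 the only knockout on the positive side. Each of these values thus rests on 1 library in a group.

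**Figure D3:**
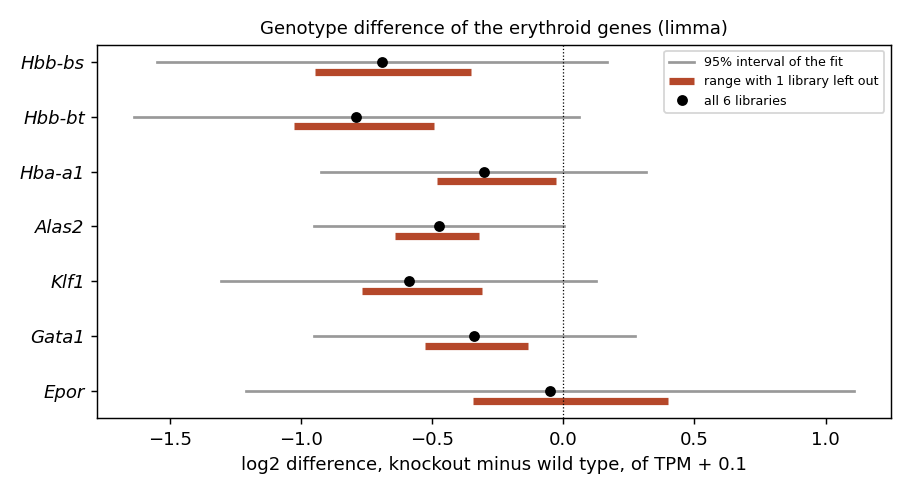
Log2 difference, knockout minus wild type, of log2(TPM + 0.1) for the 7 distinct genes; dots are the limma fit on all 6 libraries, grey lines its 95% intervals, red bars the range when 1 library is left out. All 7 intervals include 0, and only the red bar of Epor, from -0.34 to 0.40, crosses 0.

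Per gene length, Hbb-bs had the highest level of the set, with a mean of 33.8 TPM over the 6 libraries. Hba-a1 followed with 15.5 TPM, a mean over both alpha-globin copies. Hbb-bs was above this mean per alpha-globin copy in every library, by 1.55 to 3.25 times. By reads over both copies, alpha-globin stood above beta-globin in knockout 1, at 513 against 489 reads, and below it in the other libraries. Hbb-bt, Epor, Gata1 and Alas2 had means of 2.48, 2.47, 1.94 and 1.94 TPM, and their ranges over the libraries overlapped, so their order is not settled. Klf1 was lowest, with 0.132 TPM. By mean TPM Hbb-bs ranked 5252 of the 17382 genes. Globin reads numbered 8.97 to 26.4 per 1000000 reads.

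The 7 genes had unlike patterns over the 6 libraries. Likeness was measured as the root mean square distance between the centred log2(TPM + 0.1) values of a pair of genes, over 6 libraries; a distance of 0 means the same relative levels. Hbb-bs and Hbb-bt were 0.14 apart, and Alas2 and Hba-a1 0.22. Epor was 1.05 from Hbb-bs, 0.77 from Alas2 and 0.41 from Gata1. Knockout 2 had the lowest level of Hbb-bs, Hbb-bt, Hba-a1, Alas2 and Klf1. Knockout 3 had the lowest level of Epor and Gata1. Wild type 1 was highest for Hbb-bs, Hbb-bt, Hba-a1 and Alas2, and wild type 3 for Klf1, Epor and Gata1.

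Outside the set, the 8 genes nearest to the mean profile of the members, among 10320 genes with a mean of at least 1 TPM, were Kcna3, Cd226, Car2, Plcb4, Angptl4, Ehd3, Zfpm1 and Pde5a, at distances of 0.12 to 0.17. The mean profile itself departs from a flat line by 0.29, and it was taken over 8 rows, in which the alpha-globin reads stand in both alpha rows. With these reads once, a choice made after seeing the data, 6 of the 8 genes stayed among the nearest, and Slc6a4 and Serpine2 took the places of Angptl4 and Zfpm1. Of the 8 nearest over both alpha rows, only Car2 and Zfpm1 were on an erythroid list, and the others were on no erythroid or marker list. Car2 encodes a carbonic anhydrase of red cells and osteoclasts, and Zfpm1 encodes FOG1, the cofactor of GATA1. Kcna3, the nearest, had 2.21, 1.63 and 1.82 TPM under the knockout label and 2.74, 2.58 and 2.36 TPM in wild type. The mean profile lay at -0.56 to -0.02 in the libraries labelled knockout and at 0.09 to 0.36 in wild type. Genes picked for nearness to it share this direction by their choice, so their values are descriptions. Car2 had 1.83, 1.41 and 1.68 TPM under the knockout label and 2.56, 1.96 and 2.83 TPM in wild type, without overlap. Zfpm1 had 3.64, 2.98 and 3.25 TPM against 4.77, 4.04 and 3.43 TPM, and knockout 1 lay above wild type 3.

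The profiles of single members were compared in the same way after their values had been seen. The 8 genes nearest to Gata1 included the platelet genes Selp (P-selectin), Treml1 and Gp1bb, at distances of 0.09 to 0.11. Selp had 3.36, 2.76 and 2.20 TPM under the knockout label and 3.72, 3.22 and 4.42 TPM in wild type. Mfsd2b and Slc14a1, which are on the list of terminal red cell maturation, were also among these 8. The 8 genes nearest to Epor included Trf, the transferrin gene, and Prdm1, the gene of the repressor BLIMP1. Trf had 177, 146 and 65.6 TPM under the knockout label and 97.6, 113 and 236 TPM in wild type, and it was 0.09 from Epor. None of the 8 genes nearest to Epor was on an erythroid or marker list. The 8 genes nearest to Hbb-bs were at 0.23 to 0.31, none on a list. P2ry1, a purine receptor gene, was the nearest, with 25 TPM in wild type 1 and 9.84 to 12.5 TPM in the other 5 libraries.

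**Figure D4:**
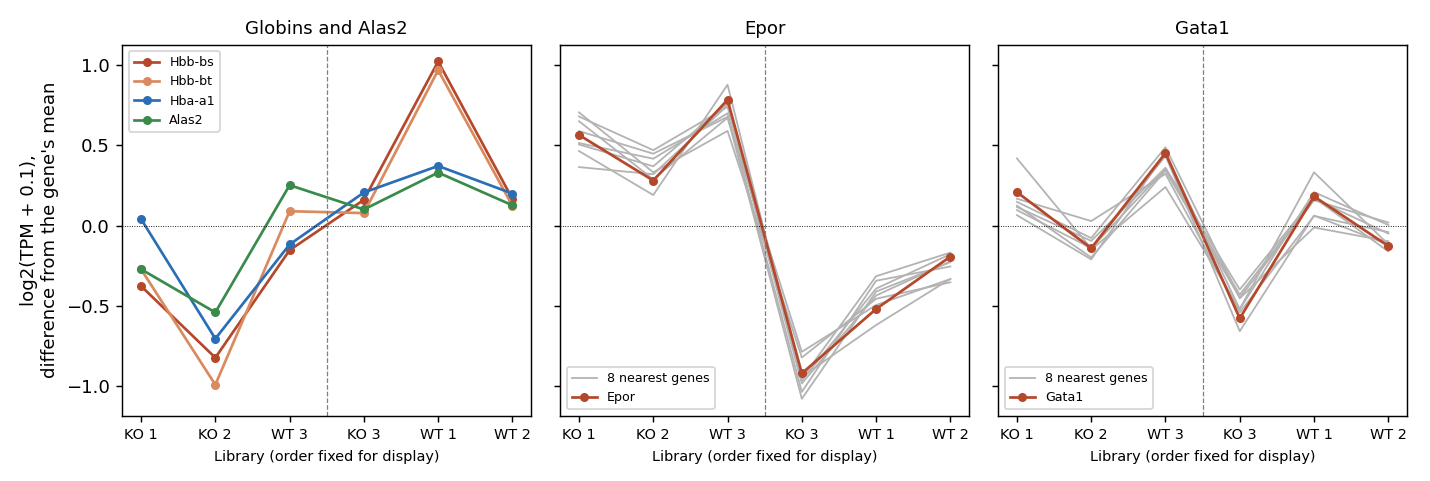
Log2(TPM + 0.1) in each library as the difference from the gene's own mean, for the globins and Alas2 (left), Epor (middle) and Gata1 (right). In the Epor and Gata1 panels the 8 nearest genes are in grey. The dashed line separates the sides of the first principal component, and the order of libraries is fixed for display only. Epor lies above its mean in the 3 libraries of one side, up to 0.79 in wild type 3, and below it in the other 3, down to -0.92 in knockout 3, whereas Hbb-bs peaks at 1.02 in wild type 1.

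Beyond the set, 8 lists of erythroid biology held 99 genes, of which 79 were tested. None of the 79 passed (limma, adjusted p). An unadjusted p under 0.05 was found for 3 (Myb and Car2 among them), where 2.18% of all genes tested had one. A negative log2 difference was found for 48, where 48.9% of all genes tested had one. The 48 include Hba-a2, Hbb-b1 and Hbb-b2, which repeat the reads of other rows. The median log2 difference over the 79 was -0.04, beside 0.0026 for all genes. For 9 of them the groups did not overlap, all with the libraries labelled knockout lower, where 2.27% of all genes did so; Hbb-bt and its duplicate Hbb-b2 are both among the 9. Genes that passed the filter through wild type alone had to differ, so these counts are descriptions.

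The lists of genes that red cells share with other cells had medians close to 0; values are given here and below with the knockout label first. In heme synthesis 5 of 9 tested genes were negative, with a median of -0.02, and Alas2 had the largest difference; Urod, the uroporphyrinogen decarboxylase, had 61.0 ± 9.0 against 62.6 ± 6.9 TPM and Alad 6.40 ± 0.61 against 7.29 ± 1.48 TPM (SD, n = 3 each). In iron and heme transport 4 of 10 were negative, with a median of 0.01. Tfrc, the transferrin receptor, had 620 ± 50 against 640 ± 73 TPM (SD, n = 3 each). Tmem14c, a porphyrin transporter of mitochondria, had 382 ± 18 against 353 ± 63 TPM, and the iron transporter Slc11a2 36.1 ± 2.4 against 33.5 ± 3.8 TPM. In red cell enzymes 3 of 7 were negative, with a median of 0.07. Cat, the catalase gene, had 1180 ± 194 against 1117 ± 280 TPM, Blvrb, the biliverdin reductase B gene, 668 ± 51 against 611 ± 89 TPM, and Nt5c3 47.9 ± 6.7 against 41.1 ± 2.5 TPM. These abundant genes are active in many cell types.

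In erythropoietin signalling 3 of 11 tested genes were negative, with a median log2 difference of 0.06. The kinase gene Jak2, through which the receptor signals, had 38.3 ± 0.5 against 34.3 ± 3.2 TPM (SD, n = 3 each; knockout label first). The kinase genes Lyn and Pim1 had 217 ± 6 against 208 ± 6 TPM and 69.4 ± 8.6 against 55.9 ± 8.7 TPM. Bcl2l1, a survival gene, had 93.8 ± 47.6 against 90.9 ± 29.4 TPM.

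Among erythroid transcription factors 11 of 15 were negative, with a median of -0.05. Myb, a factor of progenitors, had 11.9 ± 0.4 against 14.5 ± 0.5 TPM (SD, n = 3 each) without overlap, a log2 difference of -0.27 ± 0.09 (SE) and an unadjusted p of 0.0205 (limma, adjusted p = 1.0). Lmo2, a bridging factor of blood cell regulators, had 192 ± 6 against 182 ± 9 TPM, and Lyl1, a factor of blood cells, had means of 98.6 and 92.2 TPM. Gata2, which precedes Gata1 in progenitors, had 0.518 ± 0.067 against 0.576 ± 0.136 TPM.

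For the red cell membrane and skeleton 9 of 13 tested genes were negative, with a median of -0.22. Rhag, of the Rh complex, had no read under the knockout label and 5, 0 and 5 reads in wild type, where 0 reads allow up to 3. Tspan33 had 1.76 ± 0.40 against 2.94 ± 1.17 TPM (SD, n = 3 each). The more widely active Gypc and Tmod1 had 16.2 ± 1.4 against 15.8 ± 1.4 TPM and 6.84 ± 1.53 against 6.11 ± 0.96 TPM.

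For terminal maturation 7 of 8 tested genes were negative, with a median of -0.15. Trim10, an erythroid ubiquitin ligase gene, had 10, 6 and 7 reads against 10, 15 and 13 reads and did not overlap in TPM. Mfsd2b, a lipid transporter of red cells and platelets, had 3.14 ± 0.65 against 3.99 ± 0.47 TPM (SD, n = 3 each). Bnip3l, which clears mitochondria, and Xpo7 had 71.9 ± 11.4 against 63.7 ± 15.7 TPM and 16.9 ± 0.4 against 17.8 ± 1.8 TPM. Of the globin list beyond the adult genes, the embryonic Hbb-y had 3 reads and the theta-like Hbq1a and Hbq1b 4 and 16 reads over all 6 libraries, and they did not pass the filter.

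**Figure D5:**
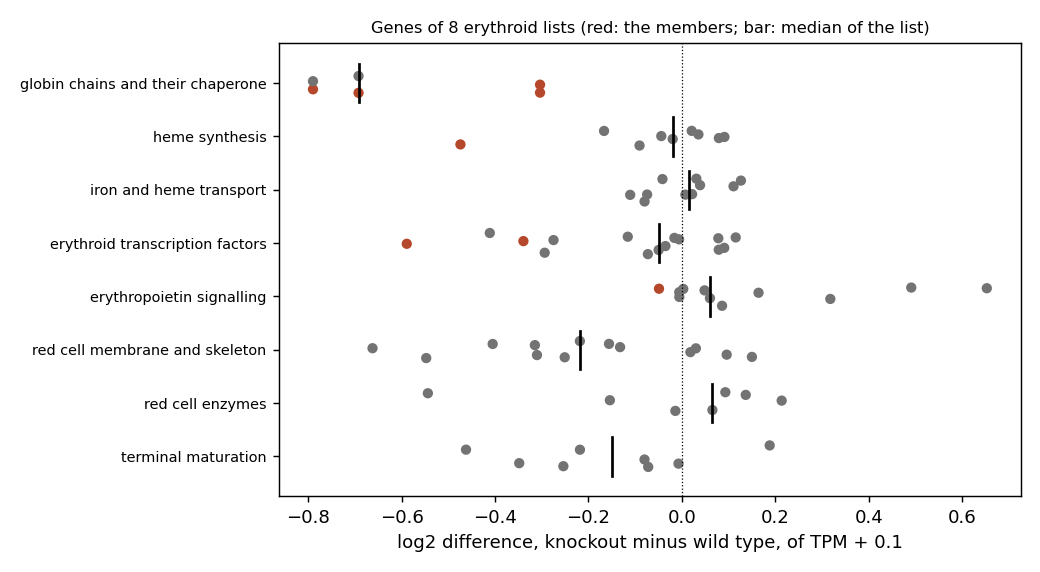
Log2 difference, knockout minus wild type, of log2(TPM + 0.1) for each tested gene of 8 erythroid lists; red points are the genes of the set, grey points the other genes, black bars the list medians. The globin list lies lowest, with a median of -0.69 that counts beta- and alpha-globin reads more than once, and the lists of widely active genes lie around 0.

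Markers of other cell types, some of which share erythroid regulators, were also measured. The 12 megakaryocyte markers summed to 818 to 1180 TPM under the knockout label and 1002 to 1111 TPM in wild type. Most of this sum was Pf4, at 701 to 1036 TPM under the knockout label and 858 to 916 TPM in wild type. Ppbp had 65.4 to 121 TPM over the 6 libraries, and no other marker of this list exceeded the 20.1 TPM of Itga2b. None of the 12 was at 0, and 10 of 12 had a negative log2 difference with a median of -0.34. The stem and progenitor list of 8 genes summed to 25.7 to 25.9 TPM against 30.7 to 31.6 TPM, without overlap, with 6 of 8 negative and none at 0. The largest differences in mean were those of Myb, 11.9 against 14.5 TPM, and Cd34, 2.91 against 4.72 TPM. Hoxa9 went the other way without overlap, with means of 0.499 against 0.314 TPM, and Kit had a positive log2 difference as well. The 7 eosinophil markers with a row summed to 61.5 to 66.2 against 61.7 to 79.2 TPM. The 9 mast cell and basophil markers summed to 19.7 to 25.8 against 15.1 to 25 TPM, with Cma1, Tpsb2 and Mcpt4 at 0 in most libraries. The macrophage markers other than Lyz2 summed to 3759 to 4673 against 3976 to 4798 TPM. The erythroid marker list, of which 13 of 15 genes had a row, summed to 43.8 to 77.6 against 68.7 to 114.7 TPM with both alpha-globin rows in the sum. With the alpha-globin reads once it summed to 34.7 to 60.3 against 54.9 to 95.3 TPM, and the groups overlapped either way. The part of the megakaryocyte, progenitor and macrophage markers in the erythroid values was not tested.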

How the data were processed

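Strand-specific total RNA libraries were made from 4 µg of DNase-treated RNA and sequenced on a HiSeq 2500, per the labels. Named in the submitters' processing notes are mm10, edgeR, featureCounts, Subread, Picard 1.127, TopHat2 2.0.12 and FastQC 0.11.2. How reads were counted, and over which annotation, is not given in the sources used here. For each gene and library the authors deposited a TPM value, summing to 1000000, with their own log2 fold change, mean log2 CPM, likelihood ratio score, p-value and adjusted p-value, per the file headers. The unit TPM was read from the values.

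Whole reads were recovered from the TPM steps, within 0.01 of a read for 100% of 94034 values above 0; gene lengths came from the same steps. The genotype test was limma 3.58.1 (R 4.3.3, trend, two-sided) on log2(TPM + 0.1), restricted to genes reaching 0.1 TPM in 3 or more libraries. Fold changes on this scale understate low genes. Groups follow the sample titles, 3 against 3; p-values measure the spread between these samples. Named genes were the set, the 2 most abundant and the 2 with the smallest p of each list, and the 8 nearest to the mean profile; genes named otherwise were chosen after their values were seen, and some genes of the lists are not reported here. The members and lists were chosen with earlier results of these data known. Alternatives covered pseudocounts, filters, scaling, limma-voom on recovered reads, the replicate number, the side of the first component and single libraries left out. The fit and the recovery were tested on simulated data.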

Additional observations from a re-analysis of the deposited data

How the results depend on the processing

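All 14 alternatives called 0 genes and 0 members; the numbers of genes at an unadjusted p under 0.05 ranged from 168 (filter of 1 TPM) to 1042 (first component side as a term), with 1017 without wild type 3, 487 without a filter and 310 with limma-voom. Of the 8 rows, those with an unadjusted p under 0.05 were Hbb-bs, Hbb-bt and Alas2 without knockout 3 (276 of all genes), Epor and Gata1 with the first component side as a term, Hbb-bs without wild type 3, and Alas2 with a pseudocount of 1 (297 of all genes) and with limma-voom. Of 111 values of single members, 109 kept their sign; Epor reversed without knockout 3 (0.40) and without wild type 3 (0.33). Leaving out 1 library at a time gave log2 differences of -0.95 to -0.35 for Hbb-bs, -1.03 to -0.49 for Hbb-bt, -0.48 to -0.03 for Hba-a1, -0.64 to -0.32 for Alas2, -0.77 to -0.31 for Klf1, -0.53 to -0.14 for Gata1 and -0.34 to 0.40 for Epor. Klf1 was -1.14 with a pseudocount of 0.01 or limma-voom and was left out by the filter of 1 TPM. With the replicate number as a block 0 genes were called and 232 had an unadjusted p under 0.05; deviations of same-numbered libraries correlated by -0.24, -0.15 and -0.53 across genes, so the numbers were not taken as pairs, and no library correlated best with its own number. Median-of-ratios scaling moved the median of all genes from 0.0026 to 0.0056. Counts of 0 to 15 reads per library limit Klf1, Rhag and Trim10, and 3 libraries per group limit all tests.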
